A study of Mus musculus with 6 samples.

Results

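The genes described here are 10 markers by which dermal fibroblasts and their lineages are recognised: Dpp4, Lrig1, Prdm1, Ly6a, Cd34, Pi16, Thy1, S100a4, Fap and Vim. They were taken by symbol from a table of 23412 genes, and all 10 were found. They are compared between ventral dermis of 3 mutant mice and of 3 control littermates, all 3 weeks old and of mixed CD1 and C57BL/6 background. The mutants carried HoxB6CreERT/+, R26-YFP/+ and CatnbΔex3/+, so that Cre removes exon 3 of one beta-catenin allele and leaves a protein that escapes degradation. The controls carried HoxB6CreERT/+ and R26-YFP/+ only. Both groups received tamoxifen through the dam at embryonic day 16.5, which switches the Cre on in cells where HoxB6CreERT is active at that time. The share of fibroblasts that recombined is not given in the labels. Levels are FPKM, fragments per length of gene and per depth of library, so levels of different genes can be compared per length.

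Mouse dermal fibroblasts descend from a common progenitor that divides before birth into an upper, papillary lineage, which forms the dermis under the epidermis and the hair papilla, and a lower lineage, which forms the reticular dermis and the fat-rich hypodermis. Dpp4, Lrig1 and Prdm1 mark the papillary side in developing mouse skin. Ly6a marks the lower, hypodermal side, Cd34 is high in fibroblasts of the lower dermis, and Pi16 marks fibroblasts of vessel sheaths and fascia found in many organs. Thy1, S100a4, Fap and Vim are used as markers of fibroblasts in general. None of the 10 belongs to fibroblasts alone. Bulk tissue was sequenced, so fewer cells of a type and less RNA per cell cannot be told apart.

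Gene promoters give a view of the members that does not depend on the measured values. The RefSeq promoter table (GRCm38.p6) held 7 of the 10 members, and the 250 bases before each start were searched on both strands. For TCF/LEF, the factors through which beta-catenin acts, the search words were CTTTGAA along with CTTTGAT, then CTTTGTA together with CTTTGTT. The others were TATAAA for the TATA box, CCAAT, the GC box word GGGCGG and the AP-1 word TGANTCA. None of these motifs overlapped another in the windows shown. The promoters of 3 members are printed because they stand at different ends of the results: S100a4 had the largest difference of the members, Prdm1 was lower in every mutant, and Pi16 held the only TCF/LEF match. Capitals mark motif matches, and each line runs 5′ to 3′ on the gene's own strand. On GRCm38.p6 the windows are chr3:90603520-90603769 (plus) for S100a4, chr10:44458749-44458998 (minus) for Prdm1 and chr17:29318632-29318881 (plus) for Pi16. The RefSeq starts of Prdm1 and Pi16 lie inside the GENCODE span of these genes, which has other starts.
S100a4: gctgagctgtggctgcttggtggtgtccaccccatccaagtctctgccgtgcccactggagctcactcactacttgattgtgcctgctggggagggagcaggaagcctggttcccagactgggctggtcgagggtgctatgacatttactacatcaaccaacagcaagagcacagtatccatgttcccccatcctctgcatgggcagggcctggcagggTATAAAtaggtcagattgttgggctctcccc
Prdm1: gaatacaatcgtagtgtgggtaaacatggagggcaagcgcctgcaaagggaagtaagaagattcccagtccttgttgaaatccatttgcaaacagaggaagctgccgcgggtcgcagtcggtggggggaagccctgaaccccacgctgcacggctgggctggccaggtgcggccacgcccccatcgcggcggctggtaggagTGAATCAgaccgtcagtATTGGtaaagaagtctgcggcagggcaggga
Pi16: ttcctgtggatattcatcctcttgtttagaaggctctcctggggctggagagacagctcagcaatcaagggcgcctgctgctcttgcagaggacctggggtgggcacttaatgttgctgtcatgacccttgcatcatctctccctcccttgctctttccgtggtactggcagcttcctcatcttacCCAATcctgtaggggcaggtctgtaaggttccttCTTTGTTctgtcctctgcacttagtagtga
In S100a4 the capitals are a TATA box that begins 31 bases before the start. In Prdm1 they are an AP-1 word at 48 bases and a CCAAT word, on the other strand, at 31 bases. In Pi16 they are CCAAT at 64 bases and the TCF/LEF word CTTTGTT at 30 bases. Of 32851 mouse promoter windows of this length, 14.8% held a TCF/LEF word, against 1 of the 7 members with a window. A TATAAA word was in 12.4% of all windows and in 3 of the 7, those of Vim, Dpp4 and S100a4. CCAAT was in 33.8% of all windows, GGGCGG in 32.7% and the AP-1 word in 6.75%. The Lrig1 window was the richest in CpG among the members, with 26 CpG and both GC boxes found, and those of S100a4 and Pi16 the poorest with 2 each, where the median window has 6. These matches describe letters only.

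Libraries held 11839144 to 13478910 gene reads in the mutants and 7799565 to 9675359 in the controls, as recovered from the FPKM steps, and the 10 members had between 125 and 10896 reads in a library. Mutant 1 and control 2 stood at opposite ends of the first principal component, which held 51.0% of the variance, at 33.9 and -34.9, with the other libraries between -4.74 and 8.45. Controls 1 and 2 were female by Xist, at 55.5 and 66.2 FPKM, while control 3 and the mutants expressed genes of the Y chromosome. In mutant 2, Xist was at 6.47 FPKM. Fibroblast identity of the tissue was plain, with 852 to 4494 FPKM of Col1a1 over the 6 libraries. Epidermal or follicular epithelium was present as well, since Krt5 stood at 196 to 267 FPKM and Krt14 at 168 to 253 FPKM. Values were compared with limma on log2(FPKM + 1), for the 12560 genes whose mean was 1 FPKM or more.

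The markers divided into those that were higher in mutant dermis and those that were not, and the division followed role only in part. In 5 members, S100a4, Cd34, Thy1, Ly6a and Vim, every mutant lay above every control, with log2 differences of 0.80 to 1.41. In 1 member, Prdm1, every mutant lay below every control, with a log2 difference of -0.42. The other 4, Lrig1, Pi16, Dpp4 and Fap, had overlapping groups. Of all tested genes, 13% had every mutant above every control and 2.65% had every mutant below.

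No member passed the threshold of 0.05 after Benjamini-Hochberg adjustment over all genes in limma, so none of the differences is called. Across all genes limma called 0.143% higher and 0% lower, which is 18 genes and 0 genes. Leaving out single libraries moved these calls between 3 higher and 0 lower, without mutant 2, and 198 higher and 4 lower, without control 3. The counts were 28 higher without control 1, 11 without control 2, 8 without mutant 1 and 58 without mutant 3. At an unadjusted limma p under 0.05, 5 members were higher and 1 was lower, against 10.5% and 0.748% of all tested genes. The median log2 difference of the 10 members was 0.56, and that of all tested genes was 0.09. It was above 0 in 7 of the 10 and in 71.3% of all tested genes. Another tool, limma-voom on the recovered reads, called 3 members higher, namely S100a4, Thy1 and Cd34 (adjusted p from 0.0177 to 0.0258), where it called 1.48% of all genes higher and 0.0318% lower. Without mutant 1 and control 2 the members' median was 0.25.

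**Figure D1:**
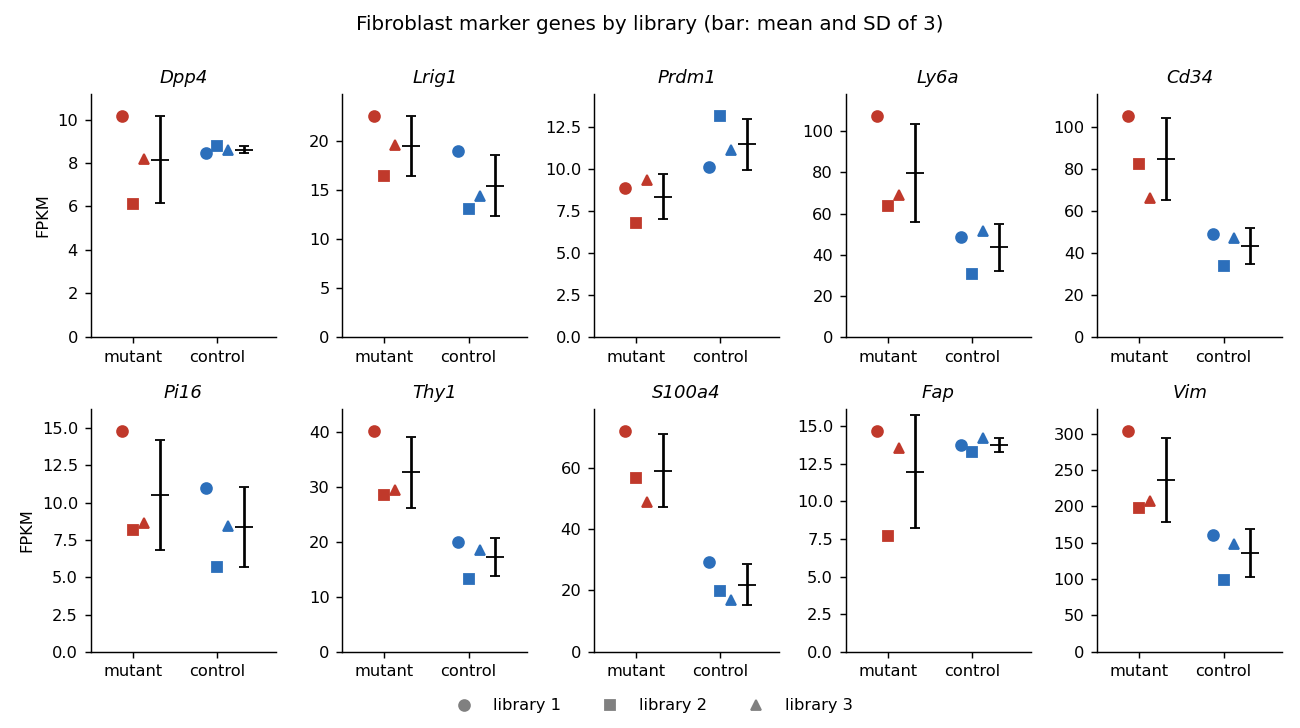
FPKM (vertical axes, from 0) of the 10 markers in each library, mutants in red and controls in blue, with the mean and SD of 3 libraries beside them. Equal symbols mark equal library numbers, which are not taken as pairs. Groups are separate in S100a4, Cd34, Thy1, Ly6a and Vim, and in Prdm1 the 3 mutants lie below the 3 controls.

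Among the papillary markers, Prdm1 was lower in mutants, Dpp4 was about level and Lrig1 was slightly higher. Prdm1 (chromosome 10, 44437177 to 44528501, minus strand, GENCODE M21 on GRCm38) encodes Blimp1, a transcriptional repressor of papillary fibroblasts, the sebaceous gland and differentiating epidermis. It had 8.86, 6.80 and 9.29 FPKM in mutants 1 to 3, against 10.1, 13.1 and 11.1 FPKM in controls 1 to 3. The highest mutant was thus close below the lowest control. The log2 difference was -0.42 (95% interval -0.77 to -0.07, limma adjusted p = 0.329), and 1.55% of all tested genes had a more negative one. Of 9 tested keratinocyte markers, 1 had an unadjusted p under 0.05 and was higher. Another, the desmosome gene Dsp, had every mutant below every control as Prdm1 did, at 272, 202 and 258 FPKM in mutants 1 to 3, against 278, 299.8 and 296 FPKM in controls 1 to 3. Its log2 difference was -0.26 (limma adjusted p = 0.784), and it was chosen after its values were seen. The keratinocyte sum overlapped, at 821 to 977 FPKM in mutants and 836 to 954 FPKM in controls. The sum of 7 sebaceous gland markers was 201 to 288 FPKM in mutants and 183 to 221 FPKM in controls, with 3 of the 6 tested higher at an unadjusted p under 0.05. No marker of these lists was at 0 in all libraries, and their part in the Prdm1 value was not tested.

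Dpp4 (chromosome 2, 62330073 to 62412231, minus strand) encodes CD26, a membrane protease that clips pairs of residues from the ends of peptides. It had 10.1, 6.13 and 8.19 FPKM in mutants 1 to 3, against 8.46, 8.79 and 8.61 FPKM in controls 1 to 3. The controls were nearly equal and the mutants lay on both sides of them. For Dpp4 the log2 difference was -0.10 (95% interval -0.47 to 0.28, limma adjusted p = 0.906). The difference was 0.073 without mutant 2 and -0.24 without mutant 1 and control 2.

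Lrig1 (chromosome 6, 94604529 to 94700158, minus strand) encodes a membrane protein that restrains ERBB growth factor receptors, and it also marks stem cells of the hair follicle. It had 22.5, 16.4 and 19.6 FPKM in mutants 1 to 3, against 18.9, 13 and 14.3 FPKM in controls 1 to 3. Mutants 1 and 3 were above every control and mutant 2 was below control 1. For Lrig1 the log2 difference was 0.32 (95% interval -0.08 to 0.73, limma adjusted p = 0.571), and 0.11 without mutant 1 and control 2. Exons of Slc25a26 overlap those of Lrig1 on the opposite strand. Slc25a26 stood at 1.20 ± 0.162 FPKM in mutants and 1.19 ± 0.259 FPKM in controls (SD, n = 3 each).

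Among markers of lower and adventitial fibroblasts, Cd34 and Ly6a were higher in every mutant, and Pi16 was not separate. Cd34 (chromosome 1, 194938819 to 194961279, plus strand) encodes a sialomucin of fibroblasts, vessel endothelium, hair follicle bulge cells and blood progenitors. It had 105, 82.3 and 66.3 FPKM in mutants 1 to 3, against 49.0, 33.6 and 47.2 FPKM in controls 1 to 3. The lowest mutant was well above the highest control. The ratio of means was 1.95 and the log2 difference 0.94 (95% interval 0.43 to 1.46, limma adjusted p = 0.138), and the log2 difference was 0.61 without mutant 1 and control 2. Some markers of other Cd34-bearing cells were higher too. Of 10 tested endothelial genes 3 were higher at an unadjusted p under 0.05, and their sum was 59.9 to 74.6 FPKM in mutants and 44.6 to 57.1 FPKM in controls. Of 7 tested bulge genes 2 were, and their sum was 216 to 262 FPKM in mutants and 144 to 215 FPKM in controls. The bulge sum was mostly Krt15, whose groups overlapped, with mutant 3 at 173.1 FPKM and control 1 at 173.7 FPKM. No gene of either list was at 0 in all libraries, and their part in the Cd34 value was not tested. Within each library, the ratio of Cd34 to the endothelial gene Pecam1 was 6.25, 6.07 and 5.33 in mutants 1 to 3, against 3.79, 3.24 and 3.94 in controls 1 to 3. This ratio was picked after the values were seen, and ratios to the other endothelial genes were not taken. Log2 differences of the endothelial genes ran from -0.04 for Esam to 0.56 for Kdr, with Pecam1 at 0.25. An antisense gene, Gm16897, shares exonic sequence with Cd34 on the opposite strand. It was at 0.903, 1.30 and 1.15 FPKM in mutants 1 to 3, against 1.51, 1.54 and 1.61 FPKM in controls 1 to 3, which is 44 to 69 reads a library. Its log2 difference was -0.28 (limma adjusted p = 0.461), and it was chosen after its values were seen. The library kit marks strand, but whether the counting used it is not given in the sources used here.

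Ly6a (chromosome 15, 74994877 to 74998031, minus strand) encodes Sca-1, a lipid-anchored surface protein of fibroblasts, endothelium and lymphocytes. It had 107, 63.5 and 68.8 FPKM in mutants 1 to 3, against 48.7, 30.6 and 51.5 FPKM in controls 1 to 3. All mutants exceeded all controls, and mutant 1 was far above the other mutants. For Ly6a the log2 difference was 0.85 (95% interval 0.26 to 1.45, limma adjusted p = 0.239). It was 0.39 without mutant 1 and control 2. Ly6a has close copies in the genome, such as Ly6c1, and reads shared between copies could have been divided or dropped in the counting.

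Pi16 (chromosome 17, 29317680 to 29330593, plus strand) encodes a secreted or surface-anchored protein of the CAP family. It had 14.8, 8.14 and 8.65 FPKM in mutants 1 to 3, against 11.02, 5.67 and 8.40 FPKM in controls 1 to 3. Mutant 1 alone was above every control. For Pi16 the log2 difference was 0.29 (95% interval -0.28 to 0.87, limma adjusted p = 0.768), and without mutant 1 and control 2 it was -0.18. The interval for Pi16 includes the estimate for Ly6a, and whether these markers differ from each other was not tested.

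Of the pan-fibroblast markers, S100a4, Thy1 and Vim were higher in every mutant and Fap was not. S100a4 (chromosome 3, 90603771 to 90606045, plus strand) encodes a small calcium-binding protein, also called fibroblast-specific protein, that macrophages express as well. It had 71.9, 56.5 and 48.7 FPKM in mutants 1 to 3, against 29.3, 19.7 and 16.8 FPKM in controls 1 to 3. These values rest on 517 to 702 reads per mutant library and 125 to 249 per control library. The ratio of means was 2.69 and the log2 difference 1.41 (95% interval 0.89 to 1.93, limma adjusted p = 0.0647), larger than in 99.8% of tested genes. The adjusted p was 0.0428 without control 1, 0.0435 without control 3 and 0.0424 without mutant 3. That p was 0.142 without control 2, 0.126 without mutant 1 and 0.269 without mutant 2. With library sex as a covariate, which sets the mutants against control 3 alone, the S100a4 difference was 1.74 (limma adjusted p = 0.0966).

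Leukocyte markers moved with S100a4. All 10 tested macrophage and leukocyte genes were higher at an unadjusted p under 0.05, 2 of them, Fcer1g and Ptprc, passed after adjustment, and none was at 0 in all libraries. Their sum was 217 to 389 FPKM in mutants and 84.8 to 144 FPKM in controls. The ratio of S100a4 to the myeloid adaptor gene Tyrobp overlapped between groups, at 2.18, 3.03 and 2.39 in mutants 1 to 3, against 3.32, 3.47 and 1.77 in controls 1 to 3. The ratio of S100a4 to the fibroblast receptor gene Pdgfra did not overlap, at 2.26, 2.26 and 2.24 in mutants 1 to 3, against 1.73, 1.71 and 0.951 in controls 1 to 3. These ratios were chosen after the values were seen. The part of leukocytes in the S100a4 value was not tested. GENCODE lists a gene on the same strand, Gm42674, whose exons overlap those of S100a4. No value of it was used here.

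Thy1 (chromosome 9, 44043384 to 44048579, plus strand) encodes CD90, a lipid-anchored surface protein of fibroblasts, neurons and T cells. It had 40.2, 28.5 and 29.5 FPKM in mutants 1 to 3, against 20.01, 13.3 and 18.6 FPKM in controls 1 to 3. The lowest mutant was above the highest control. The ratio of means was 1.89 and the log2 difference 0.89 (95% interval 0.44 to 1.33, limma adjusted p = 0.119), and the log2 difference was 0.57 without mutant 1 and control 2. T cell genes were low but higher in mutants, and their sums over 8 genes did not overlap, at 4.55 to 5.76 FPKM in mutants and 1.67 to 4.26 FPKM in controls. Of the 8, Cd3g alone reached the test and was higher at an unadjusted p under 0.05 (log2 difference 0.57, adjusted p = 0.419). Every mutant lay above every control in Cd3e, Cd3d and Cd2, which were below the level tested. None was at 0 in all libraries, and their part in the Thy1 value was not tested.

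Vim (chromosome 2, 13573927 to 13582826, plus strand) encodes vimentin, the intermediate filament protein of mesenchymal, endothelial and blood cells. It had 304, 198 and 208 FPKM in mutants 1 to 3, against 160.3, 98.7 and 148 FPKM in controls 1 to 3. Groups did not overlap, with mutant 1 highest and control 2 lowest. The log2 difference was 0.80 (95% interval 0.17 to 1.42, limma adjusted p = 0.292), and 0.39 without mutant 1 and control 2.

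Fap (chromosome 2, 62500943 to 62574075, minus strand) encodes a membrane protease closely related to CD26 that is used as a marker of activated fibroblasts in wounds and tumours. Fap lies 88711 bases from Dpp4 on the same strand. It had 14.7, 7.72 and 13.6 FPKM in mutants 1 to 3, against 13.8, 13.3 and 14.2 FPKM in controls 1 to 3. Mutants 1 and 3 were at the control level, and mutant 2 was lowest. The log2 difference was -0.23 (95% interval -0.70 to 0.24, limma adjusted p = 0.784), 0.035 without mutant 2 and -0.41 without mutant 1 and control 2. Dpp4 and Fap thus had the same layout, with tight controls and a low mutant 2, and the ratio of Fap to Dpp4 was 1.45, 1.26 and 1.66 in mutants 1 to 3, against 1.62, 1.52 and 1.65 in controls 1 to 3.

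**Figure D2:**
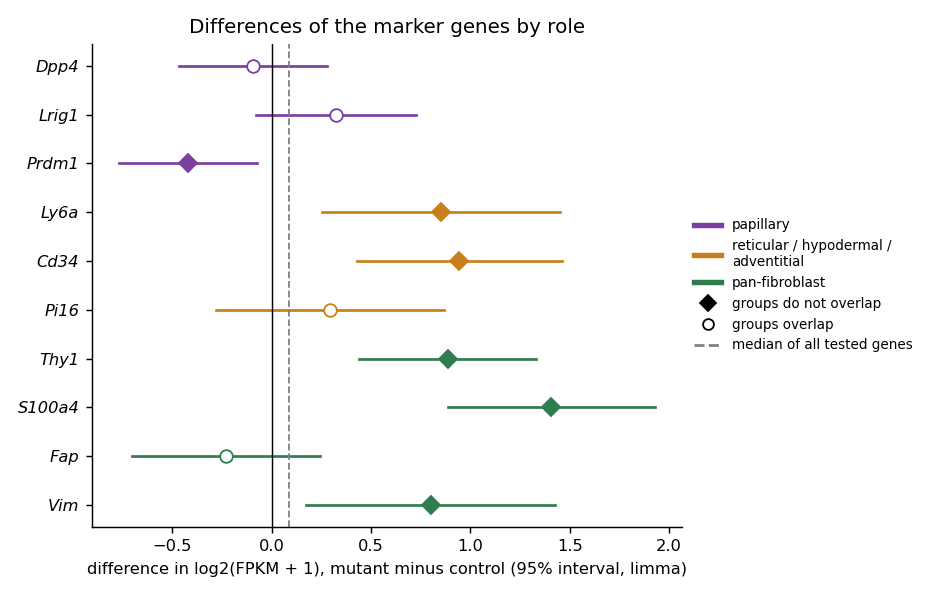
Differences in log2(FPKM + 1), mutant minus control, with 95% limma intervals, coloured by role; filled diamonds have separate groups and the dashed line is the median of all tested genes, 0.09. Diamonds to the right are Ly6a, Cd34, Thy1, S100a4 and Vim, the diamond to the left is Prdm1, and no member passed the adjusted threshold.

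Set by role, the 3 papillary markers had a median log2 difference of -0.10. The median was 0.85 for the 3 reticular, hypodermal and adventitial markers and 0.84 for the 4 pan-fibroblast markers. The papillary median minus that of the other 7 members was -0.95. Relative to the control mean and library by library, this gap was -0.977, -1.004 and -0.708 in mutants 1 to 3, against -0.24, 0.36 and -0.15 in controls 1 to 3. The groups did not overlap, and the gap was -0.63 without mutant 1 and control 2. In every mutant the papillary median was the value of Dpp4, with Prdm1 below it and Lrig1 above it. The papillary median of -0.10 is likewise that of Dpp4, so the gap does not describe the 3 papillary markers alike. The gap is a description with no test, because the markers were chosen with results known. Within roles the differences spread from -0.42 for Prdm1 to 0.32 for Lrig1, from 0.29 for Pi16 to 0.94 for Cd34 and from -0.23 for Fap to 1.41 for S100a4.

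Ratios within a library do not depend on how that library was scaled, and were taken to Vim, the most abundant member. The ratios were picked after the values were seen. Vim itself was higher in every mutant, with a ratio of means of 1.74, so a member at a level FPKM has a lower ratio in mutants, and the ratios are no second line of evidence. The ratio of Dpp4 to Vim was 0.0334, 0.0309 and 0.0394 in mutants 1 to 3, against 0.0528, 0.0890 and 0.0580 in controls 1 to 3. That of Prdm1 was 0.0292, 0.0343 and 0.0447 in mutants 1 to 3, against 0.0629, 0.133 and 0.0749 in controls 1 to 3. That of Fap was 0.0483, 0.0390 and 0.0653 in mutants 1 to 3, against 0.0858, 0.135 and 0.0959 in controls 1 to 3. All mutants were below all controls in these 3 ratios, and likewise for Lrig1, where the nearest libraries, mutant 3 and control 3, were at 0.0940 and 0.0965. Pi16, of the adventitial role, went the same way, with ratios of 0.0487, 0.0411 and 0.0416 in mutants 1 to 3, against 0.0687, 0.0575 and 0.0566 in controls 1 to 3. Lower ratios were thus found in all 3 papillary markers, and also in Fap and Pi16 of other roles. Whether they follow role was not tested. For Thy1, Ly6a and Cd34 the ratios overlapped between groups. That of Cd34 was 0.346, 0.416 and 0.319 in mutants 1 to 3, against 0.306, 0.3405 and 0.318 in controls 1 to 3, with mutants 1 and 2 above every control. That of Thy1 was 0.139 ± 0.00622 in mutants and 0.128 ± 0.00583 in controls, and that of Ly6a 0.335 ± 0.0169 in mutants and 0.3202 ± 0.0237 in controls (SD, n = 3 each). The S100a4 ratio was higher in every mutant than in every control, at 0.237, 0.285 and 0.234 in mutants 1 to 3, against 0.183, 0.1997 and 0.113 in controls 1 to 3. With 3 libraries a group, an exact permutation test of a single ratio cannot go below 0.1.

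**Figure D3:**
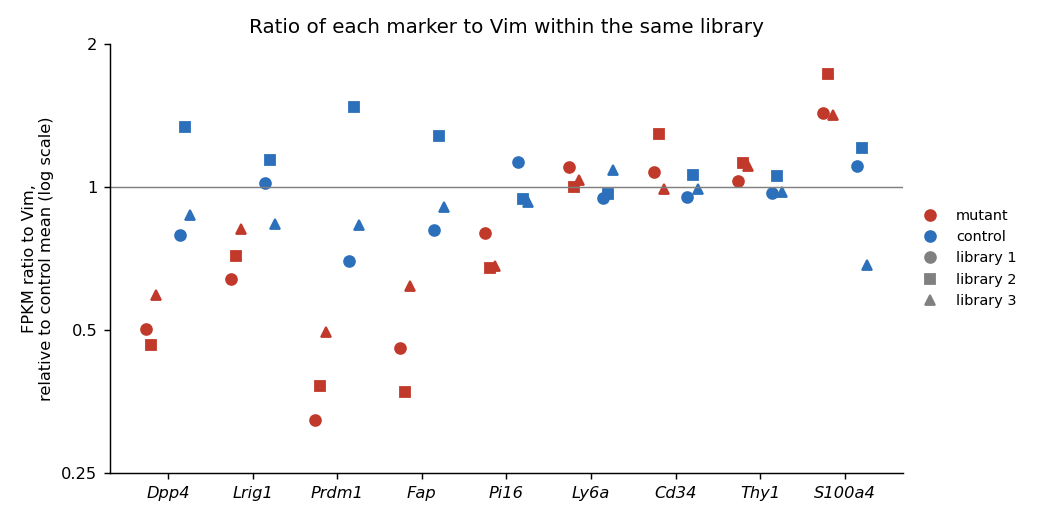
FPKM of 9 markers divided by the FPKM of Vim in the same library, relative to the control mean (log scale), with mutants in red left of controls in blue. Dpp4, Lrig1, Prdm1, Fap and Pi16 lie lower in mutants, Ly6a, Cd34 and Thy1 overlap between groups, and S100a4 lies higher in mutants.

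In level, the order of the markers differed little between the groups. In mutants Vim led at 237 ± 58.3 FPKM, followed by Cd34 (84.6 ± 19.4), Ly6a (79.9 ± 23.9) and S100a4 (59.0 ± 11.8), where neighbours overlapped. Thy1 came next at 32.8 ± 6.47 and Lrig1 at 19.5 ± 3.05, each apart from its neighbours. Fap (11.99 ± 3.74), Pi16 (10.5 ± 3.71), Prdm1 (8.32 ± 1.34) and Dpp4 (8.15 ± 2.01) overlapped in turn (SD, n = 3). In controls Vim led at 136 ± 32.7 FPKM, with Ly6a (43.6 ± 11.4) and Cd34 (43.3 ± 8.43) next. S100a4 (21.9 ± 6.56), Thy1 (17.3 ± 3.51), Lrig1 (15.4 ± 3.09) and Fap (13.8 ± 0.457) formed a chain of overlapping neighbours. Prdm1 (11.4 ± 1.53) stood apart, and Dpp4 (8.62 ± 0.160) and Pi16 (8.36 ± 2.67) overlapped (SD, n = 3).

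Wider marker lists of the same roles were set beside the members. The papillary list had a median above 0, unlike the papillary members, but it was the lowest of these lists. Medians were 0.32 for papillary, 0.41 for adventitial, 0.65 for reticular and hypodermal and 1.03 for pan-fibroblast genes. Of 10 tested papillary genes outside the members, 9 were above 0 with a median log2 difference of 0.32, 3 had an unadjusted p under 0.05 and all 3 were higher. They were the guidance factor gene Ntn1 (9.48 ± 1.75 FPKM in mutants and 5.52 ± 1.32 FPKM in controls), the Wnt inhibitor gene Wif1 (24.8 ± 2.74 FPKM in mutants and 16.7 ± 4.20 FPKM in controls) and the Wnt enhancer gene Rspo1 (3.26 ± 0.431 FPKM in mutants and 2.30 ± 0.297 FPKM in controls). Several genes of that list, such as Axin2, Apcdd1, Nkd2 and Wif1, are also Wnt targets. Their log2 differences were 0.27 for Axin2, 0.42 for Apcdd1, -0.18 for Nkd2 and 0.56 for Wif1. Any part of Wnt signalling in the values of this list was not tested. Of 7 tested reticular and hypodermal genes every one lay above 0. Their median was 0.65, with 6 at an unadjusted p under 0.05. Ly6c1 was at 25.1 ± 6.62 FPKM in mutants and 14.6 ± 4.07 FPKM in controls, the actin-severing Gsn at 205 ± 61.3 FPKM in mutants and 111 ± 25.7 FPKM in controls, and the collagen gene Col14a1 at 58.5 ± 19.4 FPKM in mutants and 31.0 ± 12.2 FPKM in controls. Dlk1, a marker of the lower lineage before and around birth, was too low to test, at 0.209 ± 0.0745 FPKM in mutants and 0.122 ± 0.0611 FPKM in controls.

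Adventitial genes outside the members had a median of 0.41 over 10 tested, with 8 above 0 and 4 at an unadjusted p under 0.05. Below 0 were Creb5, with a log2 difference of -0.19, and Procr, with -0.28. In Creb5 every mutant lay below every control, as in 2.65% of all tested genes. Axl, a receptor kinase, was at 30.2 ± 5.63 FPKM in mutants and 21.0 ± 3.48 FPKM in controls, the microfibril gene Mfap5 at 23.5 ± 9.80 FPKM in mutants and 13.1 ± 4.03 FPKM in controls, and the complement regulator gene Cd55 at 13.8 ± 0.694 FPKM in mutants and 10.5 ± 1.87 FPKM in controls. The pan-fibroblast list had the largest median of these lists, 1.03 over 13 tested genes. All 13 were above 0, 10 had separate groups and 10 had an unadjusted p under 0.05. Its members with the smallest p were the dermal transcription factor genes Twist1 (8.07 ± 1.34 FPKM in mutants and 3.34 ± 1.02 FPKM in controls) and Twist2, and the proteoglycan gene Lum, with adjusted p from 0.0744 to 0.0845. No gene of these 4 lists passed the adjusted limma threshold (0 in each). Of the members, Thy1, Cd34, Ly6a and Vim had differences of the size of this list's median, and Fap was at -0.23.

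The tested gene whose profile over the 6 libraries was nearest to each member was found by the root mean square distance of log2 values centred on each gene's mean. For Fap it was the mitochondrial protease gene Pitrm1 (distance 0.03), and for Dpp4 the lysosomal membrane protein gene Scarb2 (0.03). For Prdm1 it was the epithelial protease gene Tmprss11f (0.03), at 5.41, 3.92 and 5.73 FPKM in mutants 1 to 3, against 6.03, 7.58 and 6.82 FPKM in controls 1 to 3. For S100a4 it was Coro1a (0.08), an actin regulator of leukocytes and itself one of the genes called higher, with a log2 difference of 1.35 (limma adjusted p = 0.0442). Nckap1l, a gene of blood cells, was nearest to Thy1 (0.05) and Arhgdib, another blood cell gene, to Vim (0.03). The secreted protein genes Fstl1 and Fbln2 were nearest to Ly6a (0.05) and Cd34 (0.07). Nicn1 was nearest to Lrig1 (0.02) and Pafah1b3 to Pi16 (0.06). Among the members themselves, Vim was nearest to both Ly6a and Thy1, and ranked 6 and 10 among all 12559 other genes for them. Dpp4 and Fap were nearest to each other but with many genes closer, Fap ranking 2078 for Dpp4 and Dpp4 ranking 265 for Fap.

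**Figure D4:**
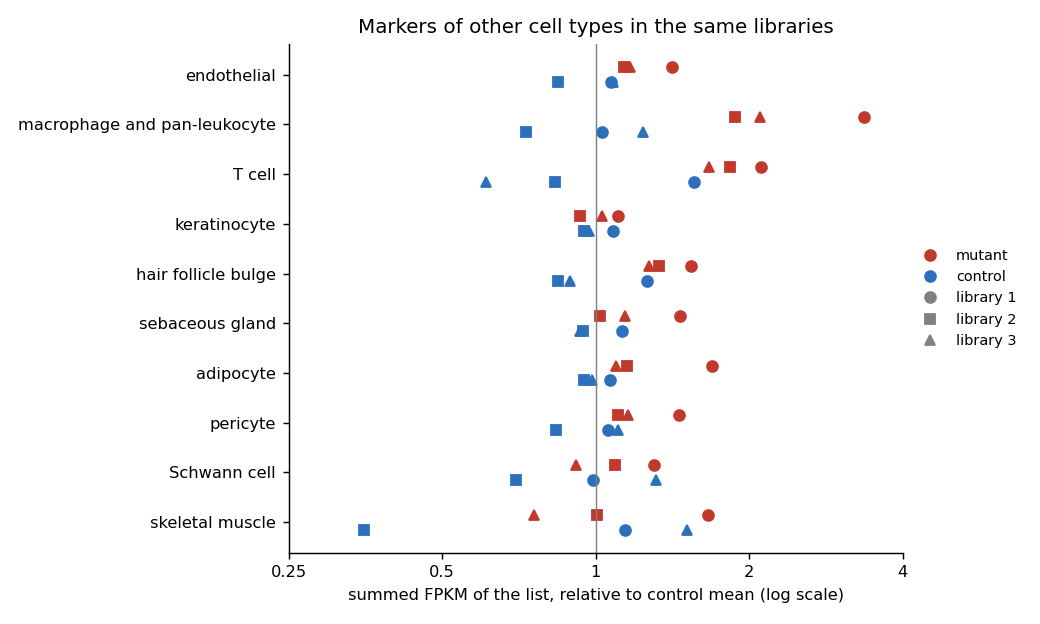
Summed FPKM of marker lists for other cell types (horizontal axis, relative to the control mean, log scale), with mutants in red above controls in blue and a symbol for each library number. The macrophage and pan-leukocyte, T cell, endothelial, bulge and adipocyte sums are higher in every mutant than in every control, for bulge only narrowly. The keratinocyte, sebaceous gland, pericyte, Schwann cell and skeletal muscle sums overlap.

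Marker genes of further cell types were summed in the same way. Adipocyte sums did not overlap, at 405 to 628 FPKM in mutants and 352 to 396 FPKM in controls. Fabp4, the largest part of these sums, had nearly equal means, at 316 ± 108 FPKM in mutants and 311 ± 4.21 FPKM in controls. Cfd was at 112 ± 52.1 FPKM in mutants and 26.5 ± 9.53 FPKM in controls. Of the 8 tested adipocyte genes, 4 were higher at an unadjusted p under 0.05. Pericyte genes, another source of Vim and Thy1, summed to 51.6 to 67.8 FPKM in mutants and 39.0 to 51.6 FPKM in controls, with 3 of 6 tested higher at that level. Schwann cell genes overlapped, at 29.4 to 41.6 FPKM in mutants and 22.4 to 42.1 FPKM in controls, and 0 of 6 tested had an unadjusted limma p under 0.05. Skeletal muscle genes varied widely and overlapped, at 713 to 1565 FPKM in mutants and 332 to 1422 FPKM in controls. None of these lists had a gene at 0 in all libraries, and their part in the members' values was not tested.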

How the data were processed

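Per the labels' protocols, epidermis was removed with trypsin and RNA of the dermis was sequenced in read pairs with the TruSeq Stranded Total RNA kit. GSNAP, HTSeq and mm10 are named in the submitters' processing notes, with no versions or options. The deposited values are FPKM computed by the authors, 1 column per mouse. Whether FPKM depth counts all or only assigned fragments is not given in the sources used here.

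Genes whose mean reached 1 FPKM were tested on log2(FPKM + 1), a scale that understates the change of low genes, with limma 3.58.1 (R 4.3.3), a prior variance that follows the mean level, p-values for both directions and Benjamini-Hochberg adjustment over all 12560 genes. Whole reads were recovered from FPKM steps at a relative tolerance of 3e-09. All 23412 genes gave a solution, but 1820 are at 0 everywhere and 1448 are seen in 1 library only, where nothing could be checked. Both steps were tested on simulated data. Chi-square per degree of freedom between libraries of a group was 13.4 to 67.0, so none is the same library sequenced again. This value cannot tell separate mice from separate preparations of a single mouse. Titles number the mice, but whether they came from separate litters is not stated.

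Members and lists were chosen with earlier results of these data known. All 10 members are named, with up to 3 genes of smallest p per list and the nearest profile per member. Alternatives were other pseudocounts, filters, scalings and covariates, a replicate block, limma-voom and leaving out libraries. Coordinates are from GENCODE M21 (GRCm38).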

Additional observations from a re-analysis of the deposited data

How the results depend on the processing

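Under 16 alternatives the 10 members' log2 differences kept their sign in all but 3 cases, none of them called: Dpp4 was 0.073 and Fap 0.035 without mutant 2, and Pi16 was -0.18 without mutant 1 and control 2. Without single libraries Dpp4 ranged from -0.25 to 0.073 and Fap from -0.39 to 0.035. The cause was not tested. The number of members called was 0 as reported, 1 with a mean of at least 5 FPKM (S100a4, adjusted p = 0.0467), 3 with limma-voom and 0 to 1 when a library was left out. Over all genes, 19 of 7470 were called higher and 0 lower with at least 5 FPKM. With limma-voom 186 of 12560 were called higher and 4 lower, and 3 to 198 were higher when a library was left out. Members with every mutant above every control numbered 5 to 6 without single libraries. The share over all tested genes was not computed there, and groups of 3 and 2 separate more easily than groups of 3. The members' median was 0.40 to 0.71 without single libraries and 0.25 without mutant 1 and control 2. The papillary gap was -1.06 to -0.71 without single libraries and -0.63 without that pair. Over all tested genes the median was 0.09 on the deposited scale, -0.01 after median-of-ratios scaling, -0.03 after quantile normalization and -0.04 in limma-voom, and 7 members exceeded it under each of these. With library sex as a covariate the mutants are set against control 3 alone, so only effect sizes are given. The members' median was then 0.49, against 0.56 without the covariate. The papillary gap was -0.74 with it and -0.95 without. Depth was lowest for S100a4, with 125 reads in control 3.

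Titles share numbers 1 to 3 between groups, but same-numbered libraries did not deviate together (correlations of 0.00159, 0.0367 and -0.0819 over genes), so the numbers are not taken as pairs. With the number as a replicate block, 1 member was called, S100a4 (adjusted p = 0.0228), and calls over all genes were 67 higher and 1 lower with the block, against 18 higher and 0 lower without it. The standard error of S100a4 was 0.122 with the block and 0.232 without, and that of Prdm1 was 0.155 in both. The correlations over all genes thus do not settle whether the members deviate together by number.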

Other observations

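Relatives of the members by gene family gave values that the comparison above did not use. In the DPP4 and FAP protease family 5 relatives were tested, the median log2 difference was 0.00, and 0 had an unadjusted limma p under 0.05 (0 called after adjustment). The smallest p was that of Dpp7, a dipeptidyl peptidase of lysosomes and vesicles, at 6.26 ± 0.878 FPKM in mutants and 4.96 ± 0.718 FPKM in controls (SD, n = 3 each). Relatives of Lrig1 and the ERBB receptors it restrains had a median of -0.01 over 5 tested genes. Egfr was at 35.2 ± 4.71 FPKM in mutants and 37.3 ± 0.231 FPKM in controls, Erbb3 at 18.7 ± 2.56 FPKM in mutants and 20.1 ± 1.503 FPKM in controls, and Lrig3 at 10.7 ± 1.36 FPKM in mutants and 10.2 ± 0.935 FPKM in controls.

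In the S100 family 11 relatives of S100a4 were tested, with a median log2 difference of 0.26 where S100a4 itself was at 1.41. S100a10, a partner of annexin A2, was at 159 ± 31.7 FPKM in mutants and 104 ± 10.4 FPKM in controls, and S100a13 at 12.9 ± 2.62 FPKM in mutants and 9.31 ± 1.85 FPKM in controls. S100a9, of neutrophils and stressed epithelium, was at 0.942, 7.78 and 1.06 FPKM in mutants 1 to 3, against 0.843, 0.646 and 0.137 FPKM in controls 1 to 3, so mutant 2 set its mean. S100a3, of the hair cuticle and a neighbour of S100a4, was at 936, 370.5 and 820.2 FPKM in mutants 1 to 3, against 722, 627 and 849 FPKM in controls 1 to 3, and was chosen after its values were seen.

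Relatives of Ly6a with values to test were 4. The interferon-responsive Ly6e was at 21.7 ± 5.51 FPKM in mutants and 13.6 ± 3.02 FPKM in controls, and the keratinocyte gene Ly6d at 87.1 ± 10.1 FPKM in mutants and 78.9 ± 17.4 FPKM in controls. Of 4 tested relatives of Pi16 with a CAP domain, Glipr2 (5.74 ± 1.63 FPKM in mutants and 3.00 ± 1.02 FPKM in controls) and Crispld2 (10.4 ± 2.38 FPKM in mutants and 6.50 ± 1.39 FPKM in controls) had every mutant above every control, with adjusted limma p of 0.209 and 0.240. Of all tested genes, 13% had every mutant above every control. Groups overlapped in Crispld1, with a log2 difference of 0.24, and in Crisp1, with -0.93. Crisp1 was at 3.23 ± 2.49 FPKM in mutants and 6.81 ± 4.42 FPKM in controls. The Cd34 relatives Podxl and Podxl2 had log2 differences of 0.25 and 0.28. Filament genes related to Vim, namely Des, Plec, Synm and Nes, had a median of 0.11, against 0.80 for Vim.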
